A study of Bos taurus with 12 samples.

Results

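SOCS proteins and the cytokine receptors and STAT factors that they restrain were followed through adipogenic differentiation as 10 genes chosen by name: the ligand IL6, the receptors GHR, LIFR and IL6ST, the transcription factors STAT3 and STAT5A, and the inhibitors SOCS1, SOCS2, SOCS3 and CISH. They were looked up by gene symbol in the deposited mRNA table, where each symbol matched 1 of 33714 rows. The lookup itself uses no measured value. The table gives symbols only, with no gene identifier or position. All 10 were among the 15402 rows with a mean of at least 0.1 FPKM, the fragments of a transcript scaled to its length and to the mapped fragments of the library. IL6 reached that mean only through its 9 d libraries, so it had to differ there, and its 9 d comparisons are left out of the counts of called genes.

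The libraries come from bovine cells labelled intramuscular adipocytes. The study isolated these cells as preadipocytes from longissimus dorsi muscle of newborn Qinchuan cattle. It sequenced them on days 0, 3, 6 and 9 after induction to look for RNAs that regulate intramuscular fat deposition. Each day has 3 libraries. The 0 d cells were near confluence and not yet induced. The 3, 6 and 9 d cells had received IBMX, dexamethasone and insulin in complete medium with serum for the first 2 days and insulin in the same medium from then on, so every library after 0 d was made after IBMX and dexamethasone had been taken out of the medium. The labels and the paper give different doses for dexamethasone and insulin. They also differ on whether poly(A) RNA was selected or ribosomal RNA was depleted. The paper calls the libraries of a day biological replicates and describes the cells of all time points as a single batch. It names technical replicates separately. Neither source says that the libraries came from separate animals. The p-values below therefore measure the spread between these libraries, and it is not known whether that spread covers differences between animals. Libraries of the same day correlated at Pearson r of 0.985 to 0.989 across mRNAs, and no library repeated another. The summed FPKM of a library ran from 1221194 to 1371794, and the number of reads behind a single FPKM is not in the table.

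In JAK-STAT signalling a cytokine or hormone brings receptor chains together, kinases of the JAK family bound to those chains phosphorylate them, and STAT factors that dock there are phosphorylated in turn and enter the nucleus. STAT factors switch on SOCS genes and CISH, whose proteins bind the receptor or the kinase and shut the signal off, so that the transcripts of these inhibitors also serve as readouts of recent signalling. In fat, growth hormone acts through GHR and STAT5 on lipolysis and on IGF1, and cytokines of the IL-6 family act through the shared chain IL6ST, also called gp130, and STAT3.

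The cells were checked against marker lists first. The preadipocyte and fibroblast list had 8 of 9 genes with a mean of at least 0.1 FPKM, CD34 only through its 0 d libraries, and its sum was 119505, 116285 and 123626 FPKM at 0 d, 167313, 173219 and 175138 at 3 d, 134894, 130704 and 130427 at 6 d, then 222980, 212248 and 225418 at 9 d, most of it COL3A1, a collagen. Of 10 adipocyte markers, not counting CEBPA, which reached that mean only through its 3 d libraries, 6 rose and 1 fell at 3 d vs 0 d, 6 rose at 6 d vs 0 d and 6 rose at 9 d vs 0 d. Their summed level was 54.4, 62.2 and 62.6 FPKM at 0 d, 199.6, 202 and 209 at 3 d, 100.3, 109 and 113 at 6 d, then 103, 85.4 and 104 at 9 d, and its most abundant row over the 12 libraries was PLIN1, a lipid droplet protein that shares its row with PEX11A. At 3 d, when that sum was largest, FABP4, a fatty acid carrier, was above it (94.7, 86.2 and 92.3 FPKM). The fibroblast sum reflects collagen above all, while CD34 did not exceed 0.76 FPKM and DLK1 0.13. In such bulk libraries, more cells of a type and more RNA per cell cannot be told apart. Myogenic genes were also present, as given with the other marker lists below.

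Changes are given as differences of log2(FPKM + 0.1) between day means, with the standard error (SE) of limma, and a gene is called where the absolute log2 fold change is over 1 and the adjusted p is under 0.05. The added 0.1 pulls fold changes of genes near 0.1 FPKM towards 0, which bears on IL6, SOCS1 and list genes with a day mean near or under 0.1, whose folds depend on it. The 3 comparisons with 0 d answer how far each day stood from uninduced cells and share the same 0 d libraries, so they are not independent of each other. The comparisons of 6 d with 3 d and of 9 d with 6 d follow the later steps and share libraries with them. An exact permutation test of 3 libraries against 3 cannot go below a two-sided p of 0.10, so the calls rest on limma's spread shared across genes.

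At 3 d vs 0 d, 4 of the 10 genes were called (GHR, LIFR, SOCS2 and CISH), all higher, where 23.3% of all rows tested were called, 8.06% higher and 15.2% lower. At 6 d vs 0 d none of the 10 was called in either direction, against 11.4% of all rows, 3.39% higher and 7.97% lower. At 9 d vs 0 d 1 of the 9 genes other than IL6 was called (SOCS3), higher, against 10.9% of all rows, 3.41% higher and 7.47% lower. From 3 d to 6 d 3 were called (GHR, LIFR and SOCS2), all lower, against 19.1% of all rows, 9.85% higher and 9.23% lower. From 6 d to 9 d 0 of the same 9 were called, against 4.43% of all rows, 2.55% higher and 1.89% lower. With 10 genes chosen by name, these counts are a description and say nothing about other genes of the pathway. IL6ST, STAT3, STAT5A and SOCS1 were called in no comparison. The median log2 fold change of all rows tested was -0.06 at 3 d, -0.15 at 6 d and -0.19 at 9 d vs 0 d, and with libraries rescaled by their median ratio it was 0.01, 0.01 and -0.00, a shift of over 0.1 at 6 d and 9 d that bears on small differences, as for STAT3, and on genes near the threshold such as CISH. That rescaling also changed the balance of calls: of the rows called, 46.6% in place of 31.3% were higher at 9 d vs 0 d, and 40.6% in place of 29.8% at 6 d.

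**Figure D1:**
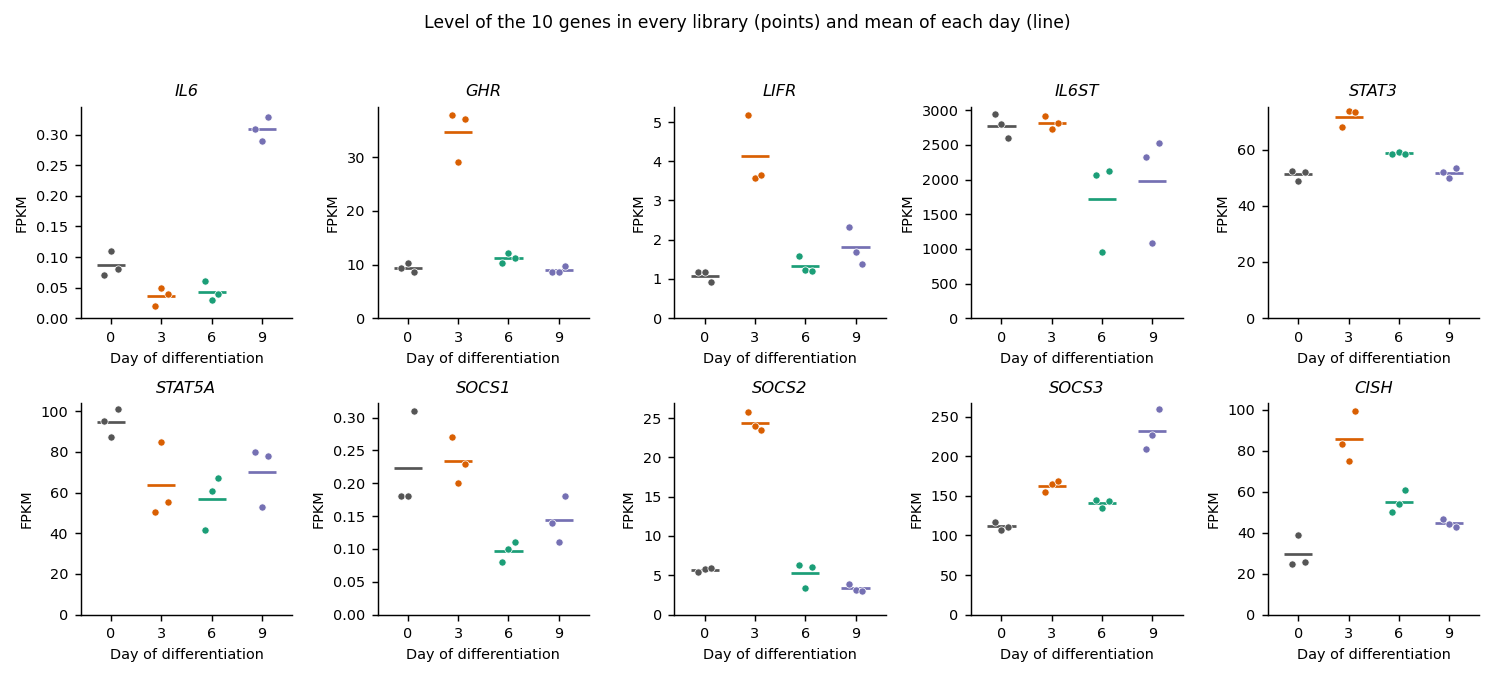
FPKM of each of the 10 genes in the 12 libraries, 1 panel per gene, with day of differentiation on the x axis, FPKM on the y axis, points for libraries and lines at day means. The 3 d points of GHR (29.2 to 37.9), LIFR, SOCS2 and CISH lie above those of every other day, those of IL6 and SOCS3 are highest at 9 d, and IL6ST has a low second library at 6 d (952) and at 9 d (1088).

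IL6, the cytokine that signals through IL6ST, had the lowest mean of the 10 genes over the 12 libraries, although at 9 d it was above SOCS1 in every library. Its values were 0.07, 0.11 and 0.08 FPKM at 0 d, 0.02, 0.05 and 0.04 at 3 d, 0.06, 0.03 and 0.04 at 6 d, then 0.31, 0.29 and 0.33 at 9 d. The 9 d libraries stood above all others and the 0 d libraries above those of 3 d and 6 d, while 3 d and 6 d overlapped. The day order was therefore 9 d, 0 d, and then 6 d and 3 d, which did not differ beyond their spread. The 9 d level was above that of 0 d by a log2 fold change of 1.14 and above that of 6 d by 1.52. As the filter let IL6 through by these 9 d values, no p is given for them. The 3 d vs 0 d difference was -0.45 ± 0.14 (SE) with an adjusted p of 0.0235 (limma, Benjamini-Hochberg), short of the fold threshold, and with 0.01 added in place of 0.1 it was -1.09 and called. With 1 added, the 9 d differences shrank to 0.27 against 0 d and 0.33 against 6 d, so for this gene the fold depends on the added constant. The differences were -0.38 ± 0.14, adjusted p = 0.0666 at 6 d vs 0 d and 0.07 ± 0.14, adjusted p = 0.718 from 3 d to 6 d (limma, Benjamini-Hochberg).

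GHR, the growth hormone receptor, which signals through JAK2 and STAT5, was high on a single day. It measured 9.41, 10.3 and 8.66 FPKM at 0 d, 37.9, 29.2 and 37.2 at 3 d, 10.4, 12.2 and 11.3 at 6 d, then 8.62, 8.52 and 9.76 at 9 d. Every 3 d library was above every library of the other days, the 6 d libraries were just above those of 0 d, and the 0 d and 9 d libraries overlapped. GHR rose at 3 d vs 0 d, where its mean was 3.68 times that of 0 d, a log2 fold change of 1.86 ± 0.12 (SE) with an adjusted p of 4.49e-07 (limma, Benjamini-Hochberg). It fell from 3 d to 6 d (log2 fold change -1.61 ± 0.12, adjusted p = 1.82e-06, limma with Benjamini-Hochberg adjustment). Neither 6 d (0.25 ± 0.12, adjusted p = 0.128) nor 9 d (-0.07 ± 0.12, adjusted p = 0.667) was called against 0 d (limma, Benjamini-Hochberg), and the step from 6 d to 9 d was -0.33 ± 0.12, adjusted p = 0.0793 (same fit). With libraries rescaled by their median ratio the 6 d vs 0 d difference was 0.42, adjusted p = 0.0169 (limma, Benjamini-Hochberg), not called.

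LIFR, the receptor chain for leukaemia inhibitory factor that pairs with IL6ST, had the same peak day at a lower level. Its values were 1.17, 1.17 and 0.91 FPKM at 0 d, 5.17, 3.57 and 3.66 at 3 d, 1.59, 1.22 and 1.19 at 6 d, then 2.33, 1.69 and 1.39 at 9 d. All 3 d libraries exceeded all others, the 9 d libraries overlapped those of 6 d, and the 6 d libraries lay above those of 0 d by a narrow margin. LIFR rose at 3 d vs 0 d to 3.82 times the 0 d mean (log2 fold change 1.83 ± 0.21, adjusted p = 4.32e-05, limma, Benjamini-Hochberg). It fell from 3 d to 6 d (-1.55 ± 0.21, adjusted p = 0.000169, limma, Benjamini-Hochberg). Its 9 d vs 0 d log2 difference was 0.66 ± 0.21 with an adjusted p of 0.0326 (limma, Benjamini-Hochberg) and did not reach the fold threshold. That p depends on single libraries and on the scaling. The difference was 0.55, adjusted p = 0.103 without the third 0 d library and 0.47, adjusted p = 0.113 without the first 9 d library (same test). With median ratio rescaling it was 0.86, adjusted p = 0.0102 (same test). The remaining differences were 0.27 ± 0.21, adjusted p = 0.369 at 6 d vs 0 d and 0.39 ± 0.21, adjusted p = 0.244 from 6 d to 9 d (limma, Benjamini-Hochberg).

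IL6ST, the signalling chain shared by receptors for IL-6, LIF and related cytokines, was by far the most abundant of the 10 in FPKM. It measured 2948, 2797 and 2594 FPKM at 0 d, 2921, 2729 and 2814 at 3 d, 2068, 952 and 2131 at 6 d, then 2323, 1088 and 2525 at 9 d. The second library of 6 d and the second of 9 d were each below all other libraries, at 0.453 and 0.449 of the mean of the other libraries of their day. Libraries of 0 d and 3 d overlapped, and both stood above every library of 6 d and of 9 d, which overlapped each other. No comparison was called, with log2 differences of 0.02 ± 0.35, adjusted p = 0.965 at 3 d, -0.78 ± 0.35, adjusted p = 0.116 at 6 d and -0.58 ± 0.35, adjusted p = 0.231 at 9 d vs 0 d (limma, Benjamini-Hochberg). The 95% interval at 6 d vs 0 d, -1.57 to 0.00, runs from a fall past the fold threshold to no difference. IL6ST differed by -0.81 ± 0.35, adjusted p = 0.0826 from 3 d to 6 d, and by 0.20 ± 0.35, adjusted p = 0.757 from 6 d to 9 d (limma, Benjamini-Hochberg). With both low libraries left out, an alternative chosen after they were seen, the differences were -0.40 at 6 d and -0.20 at 9 d vs 0 d and -0.43 from 3 d to 6 d, each short of the fold threshold. No p is given for these, as the libraries were left out for their IL6ST values. Without the second 6 d library alone, as planned, the difference at 6 d vs 0 d was also -0.40, with an adjusted p of 0.368 (limma, Benjamini-Hochberg).

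IL6ST was not the only row that was low in both second libraries. Of 6040 rows with a mean of at least 10 FPKM, 10 others were below 50% of every other library of the day in both the second 6 d library and the second 9 d library, a criterion set after the values of IL6ST were seen. They were SBDS, STX17, SMUG1, RAB1A, AGO1, TAF15, RPGRIP1, HSPA12A, SPIN1 and ZNF697. In SBDS the second libraries had 0.0396 and 0.0293 of the mean of the others. Other pairs of libraries were not counted in this way, so it is not known whether such rows are more frequent in this pair. Whether these libraries share a cause was not tested.

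STAT3, the factor that IL6ST recruits, varied little within and between days. Its values were 52.6, 48.8 and 52.1 FPKM at 0 d, 68, 73.9 and 73.3 at 3 d, 58.6, 59.1 and 58.5 at 6 d, then 52.2, 49.9 and 53.3 at 9 d. The 3 d libraries were the highest, those of 6 d came next, and those of 9 d and 0 d overlapped. The log2 differences were 0.49 ± 0.05, adjusted p = 3.25e-05 at 3 d vs 0 d and 0.20 ± 0.05, adjusted p = 0.0166 at 6 d vs 0 d (limma, Benjamini-Hochberg). The later steps were -0.29 ± 0.05, adjusted p = 0.00144 from 3 d to 6 d and -0.18 ± 0.05, adjusted p = 0.0404 from 6 d to 9 d (limma, Benjamini-Hochberg). All of these have adjusted p under 0.05 and none is near the fold threshold. STAT3 at 9 d differed from 0 d by 0.02 ± 0.05, adjusted p = 0.832, with a 95% interval of -0.10 to 0.14 (limma, Benjamini-Hochberg). This rests on the scaling: with libraries rescaled by their median ratio it was 0.23, adjusted p = 0.0177 (limma, Benjamini-Hochberg).

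STAT5A, the factor downstream of the growth hormone receptor, had wide spread within days. It measured 95.1, 87.4 and 101 FPKM at 0 d, 50.5, 84.7 and 55.4 at 3 d, 41.8, 61 and 67.1 at 6 d, then 80.0, 52.9 and 77.9 at 9 d. The 0 d libraries were above all others, although the second 3 d library, at 84.7, came close, and the libraries of 3, 6 and 9 d overlapped. Vs 0 d the log2 differences were -0.61 ± 0.24, adjusted p = 0.0573 at 3 d, -0.76 ± 0.24, adjusted p = 0.0323 at 6 d and -0.45 ± 0.24, adjusted p = 0.179 at 9 d (limma, Benjamini-Hochberg). The differences between later days were -0.16 ± 0.24, adjusted p = 0.62 from 3 d to 6 d and 0.32 ± 0.24, adjusted p = 0.422 from 6 d to 9 d (limma, Benjamini-Hochberg), so no comparison was called. The 6 d vs 0 d difference was -0.59, adjusted p = 0.0846 with median ratio rescaling, and that at 9 d was -0.26 without the second 9 d library (limma, Benjamini-Hochberg). Its neighbour and near-identical paralog STAT5B, named after its values were seen, measured 58.6, 55.3 and 24.2 FPKM at 0 d, 54.3, 58.8 and 22.7 at 3 d, 66.6, 17.8 and 26.4 at 6 d, then 27.5, 61.3 and 64.9 at 9 d. STAT5B thus varied within every day, and how reads were divided between the paralogs cannot be seen from FPKM, which limits what either row says. In RefSeq's table of ARS-UCD2.0, STAT3 is the next protein-coding gene beside STAT5A.

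SOCS1, an inhibitor that binds JAK kinases directly, was of low abundance. Its values were 0.18, 0.18 and 0.31 FPKM at 0 d, 0.27, 0.2 and 0.23 at 3 d, 0.08, 0.1 and 0.11 at 6 d, then 0.14, 0.11 and 0.18 at 9 d. The 0 d and 3 d libraries overlapped and lay above those of 6 d, and the 9 d libraries touched those of 0 d at 0.18 and those of 6 d at 0.11. The log2 differences were 0.06 ± 0.18, adjusted p = 0.801 at 3 d, -0.70 ± 0.18, adjusted p = 0.0139 at 6 d and -0.40 ± 0.18, adjusted p = 0.12 at 9 d vs 0 d (limma, Benjamini-Hochberg). They were -0.76 ± 0.18, adjusted p = 0.00611 from 3 d to 6 d and 0.30 ± 0.18, adjusted p = 0.304 from 6 d to 9 d (limma, Benjamini-Hochberg). None was called. With 0.01 added in place of 0.1, SOCS1 was called lower at 6 d, at -1.09 against 0 d and -1.19 against 3 d. The 9 d vs 0 d difference was -0.21 without the third 0 d library and -0.50 without the third 9 d library.

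SOCS2, an inhibitor of growth hormone signalling that STAT5 induces, had the largest log2 fold change of the 10 genes with 0.1 added. With 0.01 added, that of IL6 from 6 d to 9 d was larger (2.62, against -2.28 for SOCS2 from 3 d to 6 d). It measured 5.37, 5.78 and 5.94 FPKM at 0 d, 25.7, 24 and 23.5 at 3 d, 6.26, 3.32 and 6.1 at 6 d, then 3.89, 3.13 and 2.98 at 9 d. The 3 d libraries were far above all others, the second 6 d library was low, and for that reason 6 d overlapped both 0 d and 9 d, while every 9 d library was below every 0 d library. SOCS2 rose at 3 d vs 0 d to 4.28 times the 0 d mean, a log2 fold change of 2.08 ± 0.21 with an adjusted p of 1.65e-05 (limma, Benjamini-Hochberg). It fell from 3 d to 6 d by 2.26 on the log2 scale (adjusted p = 1.21e-05, limma, Benjamini-Hochberg). SOCS2 stood at -0.76 ± 0.21, adjusted p = 0.0174 at 9 d vs 0 d, below the fold threshold, and at 6 d vs 0 d at -0.18 ± 0.21, adjusted p = 0.577 (limma, Benjamini-Hochberg). The 6 d to 9 d difference was -0.59 ± 0.21, adjusted p = 0.0801 (limma, Benjamini-Hochberg).

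SOCS3, the inhibitor that binds IL6ST and is a target of STAT3, was the most abundant SOCS gene by the mean of each day. SOCS5 was above it in the third 0 d library and in the first and second 9 d libraries. Its values were 117, 107 and 111 FPKM at 0 d, 154, 165 and 169 at 3 d, 145, 134 and 144 at 6 d, then 209, 227 and 259 at 9 d. No pair of days overlapped, and the order was 9 d, 3 d, 6 d and 0 d. SOCS3 rose at 9 d vs 0 d to 2.07 times the 0 d mean (log2 fold change 1.05 ± 0.08, adjusted p = 5.83e-06, limma, Benjamini-Hochberg). That call sits at the fold threshold: without the third 9 d library the difference was 0.96, with libraries rescaled to the same sum it was just under 1, and neither was called. At 3 d and 6 d vs 0 d the differences were 0.54 ± 0.08, adjusted p = 0.000227 and 0.34 ± 0.08, adjusted p = 0.00786 (limma, Benjamini-Hochberg). SOCS3 differed by -0.21 ± 0.08, adjusted p = 0.0552 from 3 d to 6 d and by 0.71 ± 0.08, adjusted p = 0.000185 from 6 d to 9 d (limma, Benjamini-Hochberg), the latter beyond the spread of the libraries yet under the fold threshold.

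CISH, a SOCS family inhibitor that STAT5 induces, was above its 0 d level on all later days. It measured 24.9, 38.9 and 25.6 FPKM at 0 d, 83.6, 75 and 99.4 at 3 d, 49.9, 54 and 60.9 at 6 d, then 46.8, 44.4 and 42.6 at 9 d. Days did not overlap and fell in the order 3 d, 6 d, 9 d and 0 d, with the second 0 d library, at 38.9, well above the other 0 d libraries. CISH rose at 3 d vs 0 d to 2.89 times the 0 d mean (log2 fold change 1.55 ± 0.17, adjusted p = 2.86e-05, limma, Benjamini-Hochberg). At 6 d vs 0 d the difference was 0.91 ± 0.17, adjusted p = 0.00213 (limma, Benjamini-Hochberg), just short of a call. It became 1.11 without the second 0 d library and 1.08 with libraries rescaled by their median ratio, and was called in both, so this result turns on 1 library and on the scaling. Its other differences were 0.61 ± 0.17, adjusted p = 0.0174 at 9 d vs 0 d, -0.64 ± 0.17, adjusted p = 0.0101 from 3 d to 6 d and -0.30 ± 0.17, adjusted p = 0.274 from 6 d to 9 d (limma, Benjamini-Hochberg).

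**Figure D2:**
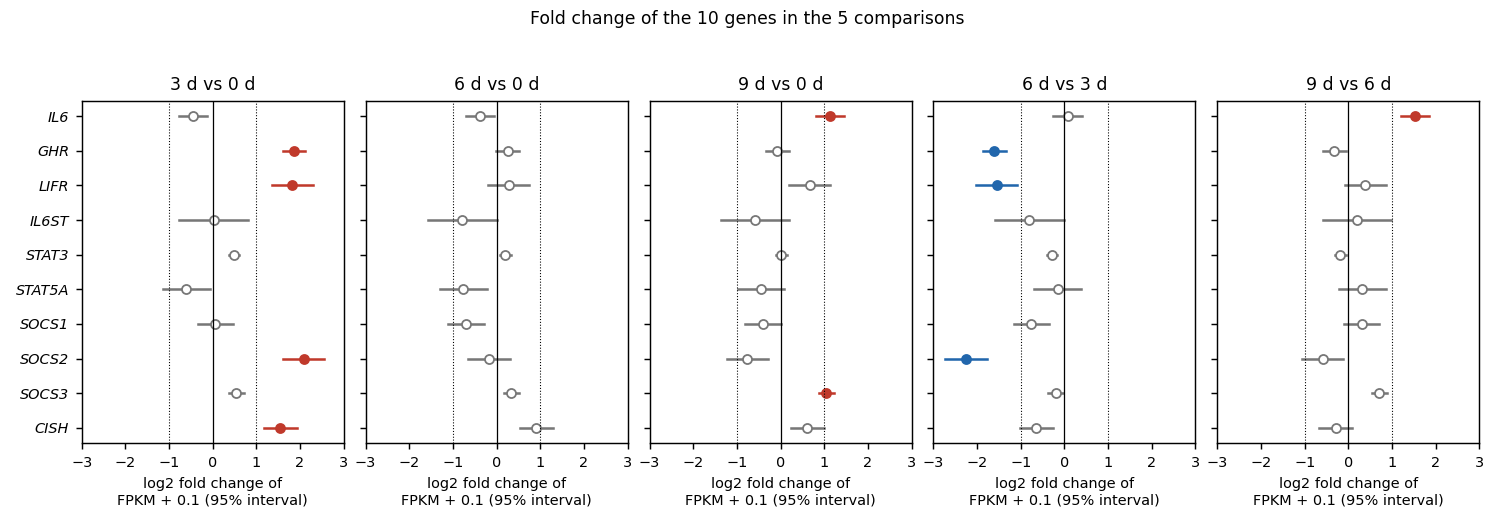
Log2 fold change of FPKM + 0.1 of each of the 10 genes (y axis) in the 5 comparisons (panels), with points for limma estimates, bars for 95% intervals, filled points for called genes and dotted lines at the fold threshold. The 9 d calls of IL6 are drawn but not counted. At 3 d vs 0 d GHR (1.86), LIFR (1.83), SOCS2 (2.08) and CISH (1.55) lie past the threshold, and the interval of IL6ST at 6 d vs 0 d is the widest of its panel.

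Among themselves, GHR and SOCS2 were the pair with the highest Pearson r over the 12 libraries on the log2 scale (0.93), followed by GHR and STAT3 (0.92) and GHR and LIFR (0.86). SOCS3 was close to unrelated to GHR (0.03). As the libraries fall into 4 days, these r values describe day profiles and carry no test. The same measure was used to find, for each of the 8 members with a mean of at least 1 FPKM, the 3 most similar of 10221 named rows. For GHR these were PDK4, VWCE and HMGB2, each with r of 0.99, and PDK4, a kinase that limits glucose oxidation, measured 0.82, 1.22 and 0.78 FPKM at 0 d, 63.9, 61 and 63.8 at 3 d, 2.25, 1.76 and 1.89 at 6 d, then 0.66, 0.69 and 0.85 at 9 d. For LIFR they were PRAP1 (0.97), SNAPC1 (0.96) and a merged row of REV3L and MIR6536-1 (0.97), with 3 d again the highest day in each. For SOCS2 they were KBTBD7, INTS2 and BORCS6, each with r of 0.99. For CISH they were IMPDH2, PTPRU and POLH, each with r of 0.96, and for STAT3 they were PSMD10, EIF2B2 and F2RL2, each with r of 0.98.

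For SOCS3 the closest rows were PTGFR (0.97), DSEL (0.96) and TGIF1 (0.96). PTGFR, the receptor for prostaglandin F2 alpha, had the same day order and measured 1.82, 2.13 and 1.47 FPKM at 0 d, 7.15, 8.44 and 7.57 at 3 d, 4.25, 4.7 and 4.29 at 6 d, then 29.3, 32 and 28.8 at 9 d. IL6ST was closest to BMI1 (0.95), ZNF383 (0.91) and ISCU (0.89), which also had low second libraries. In BMI1, a Polycomb protein, the values were 393, 342 and 368 FPKM at 0 d, 333, 296 and 338 at 3 d, 258, 151 and 263 at 6 d, then 332, 172 and 392.2 at 9 d. STAT5A had the loosest match, with HDAC10 at 0.89 and DSTYK and ZNF777 at 0.87.

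The other genes of the pathway were taken from 8 lists by role, which hold 76 rows, 59 of them tested, the 10 genes included. Of these, IL6, IL11, IL27 and CNTFR reached the mean of 0.1 FPKM through a single day, so they had to differ there and are left out of the counts of lists. Of the other 55, 7 were called higher and 11 lower at 3 d vs 0 d, or 32.7% against 23.3% of all rows, with a median log2 fold change of 0.04 against -0.06. Without the 10 genes, 3 of 46 were higher and 11 lower. At 6 d vs 0 d 2 were higher and 2 lower, all outside the 10 genes, or 7.27% against 11.4%, with a median of -0.13 against -0.15. The 9 d vs 0 d comparison had 7 higher and 0 lower, or 12.7% against 10.9%, of which 6 were outside the 10 genes, with a median of -0.05 against -0.19. Between 3 d and 6 d 9 were higher and 4 lower (9 and 1 without the 10 genes), or 23.6% against 19.1%, with a median of -0.19 against -0.09. Between 6 d and 9 d 2 were higher and 0 lower, or 3.64% against 4.43%, with a median of 0.09 against -0.04. Among the genes counted, called receptors and inhibitors of the pathway went in both directions at 3 d and called ligands were lower. At 9 d the counted genes that were called were all higher, 12.7% of those counted. Of all rows, 3.41% were higher and 7.47% lower in that comparison. Counts of single lists below are to be read beside the shares and medians of all rows given here and above.

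**Figure D3:**
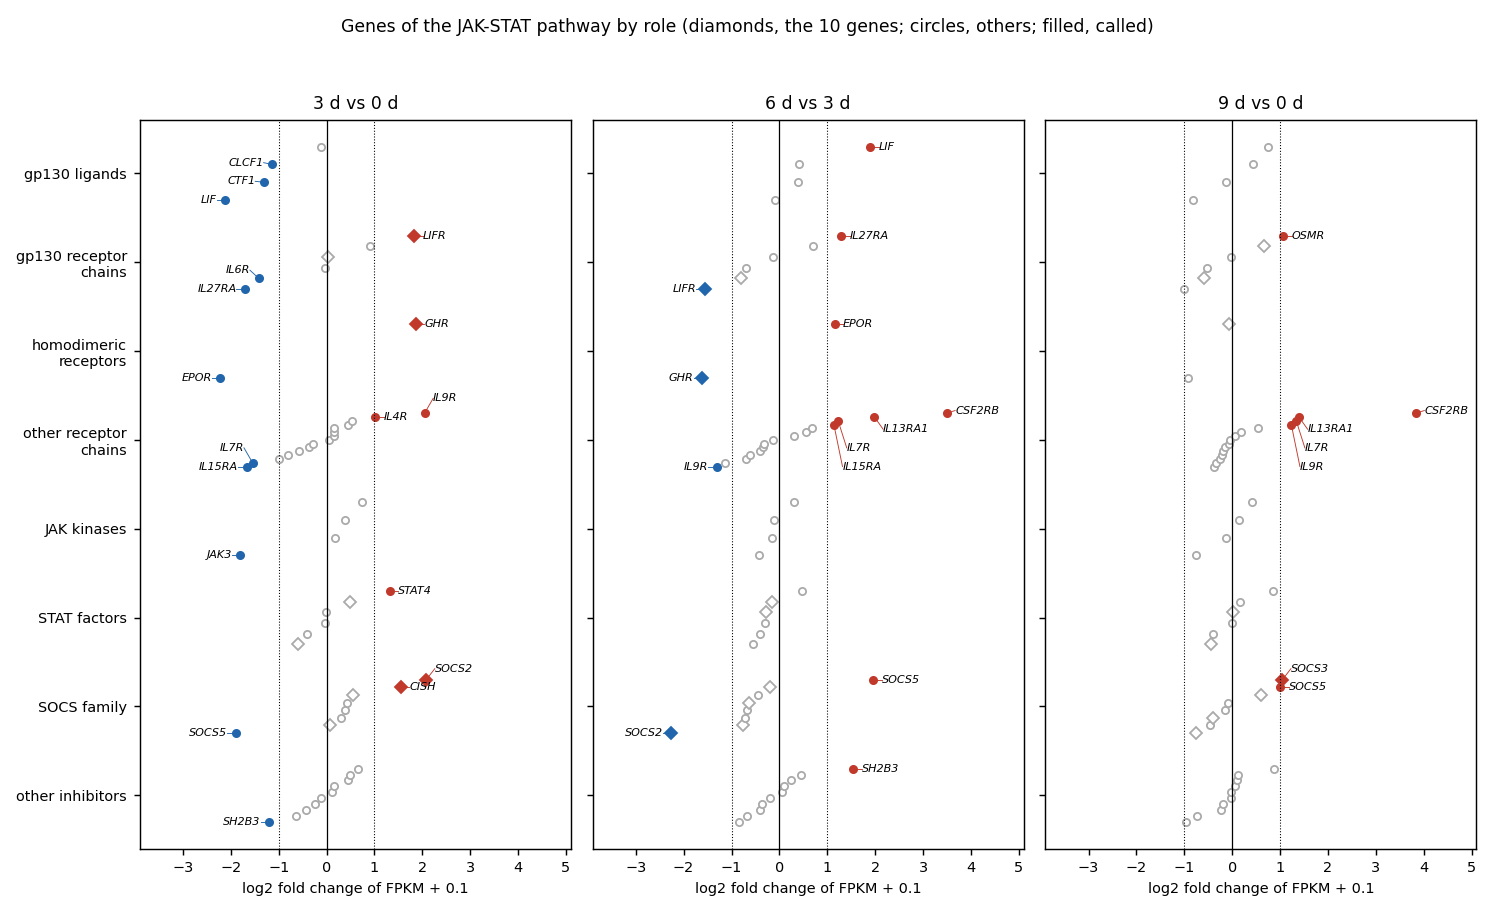
Log2 fold change of FPKM + 0.1 (x axis) of the tested genes of 8 JAK-STAT lists (y axis), leaving out those that passed the filter through a single day, at 3 d vs 0 d, from 3 d to 6 d and at 9 d vs 0 d, with diamonds for the 10 genes, circles for others and filled symbols for called genes. LIF (-2.12) and EPOR (-2.22) lie on the low side at 3 d opposite GHR (1.86), and at 9 d every called gene is higher, CSF2RB (3.83) the most.

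Among ligands that use IL6ST, LIF, the partner of LIFR, went opposite to its receptor. It measured 9.87, 6.29 and 8.42 FPKM at 0 d, 1.82, 1.78 and 1.74 at 3 d, 7.01, 7.05 and 6.72 at 6 d, then 14.3, 8.98 and 10.4 at 9 d. Its 3 d libraries were below all others, and it fell at 3 d vs 0 d (-2.12 ± 0.18, adjusted p = 4.91e-06) and rose from 3 d to 6 d (1.90 ± 0.18, adjusted p = 1.48e-05, limma, Benjamini-Hochberg). CTF1 (cardiotrophin 1) and CLCF1, further ligands of this family, fell at 3 d vs 0 d (-1.31 and -1.13). IL27 was near 0 but for its 3 d libraries, with 0, 0.07 and 0 FPKM at 0 d, 0.57, 0.71 and 0.62 at 3 d, 0.01, 0 and 0 at 6 d, then 0.05, 0 and 0 at 9 d. IL11 measured 0.08, 0.08 and 0.08 FPKM at 0 d, 0.11, 0.1 and 0.15 at 3 d, 0.08, 0.07 and 0.07 at 6 d, then 0.33, 0.3 and 0.28 at 9 d, so like IL6 it was a row of low abundance that was highest at 9 d. As IL27 passed the filter only through 3 d and IL11 only through 9 d, the test of neither is given. Of the 4 other tested ligands, IL6 not counted, 3 were called lower at 3 d vs 0 d and 1 higher from 3 d to 6 d, and in the other comparisons 0 were called.

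Among receptor chains that pair with IL6ST, IL6R, which binds IL-6 itself, measured 0.74, 0.83 and 0.58 FPKM at 0 d, 0.16, 0.28 and 0.18 at 3 d, 0.36, 0.38 and 0.43 at 6 d, then 0.61, 0.4 and 0.41 at 9 d. It fell at 3 d vs 0 d (-1.42 ± 0.20, adjusted p = 0.000148, limma, Benjamini-Hochberg), with no 3 d library reaching any of 0 d. IL27RA also fell at 3 d (-1.70) and rose from 3 d to 6 d (1.30). OSMR, the oncostatin M receptor, measured 34, 35.1 and 35 FPKM at 0 d, 64.6, 66.4 and 65.5 at 3 d, 60, 60.3 and 57.9 at 6 d, then 74, 70.7 and 72.7 at 9 d and rose at 9 d vs 0 d (1.06 ± 0.04, adjusted p = 1.24e-07, limma, Benjamini-Hochberg). The list had 1 of 6 higher and 2 lower at 3 d, 0 called at 6 d and 1 higher at 9 d vs 0 d, then 1 higher and 1 lower from 3 d to 6 d.

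Of the receptors that act as homodimers like GHR, only EPOR, the erythropoietin receptor, was also tested. It measured 0.67, 0.6 and 0.58 FPKM at 0 d, 0.05, 0.06 and 0.05 at 3 d, 0.3, 0.23 and 0.2 at 6 d, then 0.25, 0.27 and 0.31 at 9 d. It was lowest at 3 d, when GHR was highest: it fell at 3 d (-2.22 ± 0.13, adjusted p = 3.07e-07) and at 6 d vs 0 d (-1.07 ± 0.13, adjusted p = 0.000142), and rose from 3 d to 6 d (1.15 ± 0.13, adjusted p = 5.02e-05, limma, Benjamini-Hochberg). PRLR, the prolactin receptor, was listed at 0 in every library. LEPR, the leptin receptor, named after its values were seen, did not exceed 0.03 FPKM.

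In the list of other class I and class II receptor chains, 15 of 28 genes were tested. CSF2RB, the shared beta chain of the GM-CSF, IL-3 and IL-5 receptors, measured 0.34, 0.25 and 0.27 FPKM at 0 d, 0.09, 0.08 and 0.11 at 3 d, 1.85, 2.67 and 1.79 at 6 d, then 4.65, 5.99 and 5.61 at 9 d. It rose at 6 d (2.50 ± 0.17, adjusted p = 2.2e-06) and at 9 d vs 0 d (3.83 ± 0.17, adjusted p = 1.7e-07, limma, Benjamini-Hochberg), and every step from 3 d on was called, with 3.49 to 6 d and 1.34 to 9 d. IL13RA1, the most abundant gene of the list, measured 272, 236 and 302 FPKM at 0 d, 142, 472 and 160.4 at 3 d, 873, 884 and 871 at 6 d, then 491, 1467 and 489.7 at 9 d. It rose at 6 d vs 0 d (1.71 ± 0.49, adjusted p = 0.0222), from 3 d to 6 d (1.99 ± 0.49, adjusted p = 0.00733) and at 9 d vs 0 d (adjusted p = 0.0498, limma, Benjamini-Hochberg), where its second library stood far above the others. IL7R measured 0.23, 0.19 and 0.16 FPKM at 0 d, 0, 0 and 0 at 3 d, 0.15, 0.17 and 0.09 at 6 d, then 0.59, 0.71 and 0.62 at 9 d, and since it was listed at 0 in every 3 d library no fold against 3 d is given. It was called lower at 3 d vs 0 d, and higher from 3 d to 6 d, at 9 d vs 0 d (1.34) and from 6 d to 9 d (1.66).

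IL9R rose at 3 d (2.05) and at 9 d vs 0 d (1.24) and fell from 3 d to 6 d (-1.31). IL4R, a receptor for IL-4 and IL-13, rose at 3 d by 1.01, and IL15RA fell by 1.67 on the log2 scale. In all, 2 of 15 were higher and 2 lower at 3 d, 2 higher at 6 d and 4 higher at 9 d vs 0 d, 4 higher and 1 lower from 3 d to 6 d, and 2 higher from 6 d to 9 d. Of all rows, 23.3%, 11.4%, 10.9%, 19.1% and 4.43% were called in these comparisons, in the same order.

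Of the 4 JAK kinases, which phosphorylate these receptors, only JAK3 was called. It measured 0.95, 0.77 and 0.81 FPKM at 0 d, 0.18, 0.12 and 0.22 at 3 d, 0.28, 0.21 and 0.21 at 6 d, then 0.54, 0.37 and 0.48 at 9 d. It fell at 3 d (-1.80 ± 0.18, adjusted p = 1.27e-05) and 6 d vs 0 d (-1.50 ± 0.18, adjusted p = 0.000101, limma, Benjamini-Hochberg) and was the least abundant of the 4, while TYK2 was the most abundant. The summed FPKM of the 4 kinases was 193, 226 and 208 FPKM at 0 d, 253, 240.2 and 269 at 3 d, 229, 241 and 202 at 6 d, then 243, 214 and 222 at 9 d. Of the 6 STAT factors counted here, STAT4 alone was called, at 3 d vs 0 d (1.32 ± 0.16, adjusted p = 6.57e-05, limma, Benjamini-Hochberg), with 0.08, 0.09 and 0.09 FPKM at 0 d, 0.34, 0.47 and 0.3 at 3 d, 0.22, 0.2 and 0.23 at 6 d, then 0.27, 0.27 and 0.18 at 9 d.

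Within the SOCS family, 8 genes were tested. SOCS5, an inhibitor linked to IL-4 and EGF receptor signalling, measured 115, 106.5 and 112 FPKM at 0 d, 19.9, 36.3 and 36.9 at 3 d, 111, 118 and 120.5 at 6 d, then 217, 229.8 and 221 at 9 d. Its 3 d libraries were the lowest, opposite to SOCS2 and CISH, and its 9 d libraries the highest, like those of SOCS3. SOCS5 fell at 3 d vs 0 d (-1.89 ± 0.19, adjusted p = 1.77e-05), rose from 3 d to 6 d (1.96 ± 0.19, adjusted p = 1.79e-05) and rose at 9 d vs 0 d (1.00 ± 0.19, adjusted p = 0.00255), the last at the fold threshold (limma, Benjamini-Hochberg). The family's summed level was 345, 336 and 332 FPKM at 0 d, 389.8, 402 and 435 at 3 d, 385, 381 and 400.3 at 6 d, then 547, 574 and 604 at 9 d. Of the 8, 2 were higher and 1 lower at 3 d vs 0 d, at 9 d vs 0 d 2 were higher, and from 3 d to 6 d 1 was higher and 1 lower. SOCS4 is counted from a row that it shares with MAPK1IP1L. Among 10 tested inhibitors outside the family, SH2B3, an adaptor that restrains JAK2, was the only one called, with -1.20 at 3 d vs 0 d and 1.54 from 3 d to 6 d. CBL was the most abundant of that list.

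Target genes of the pathway were read as 3 lists. The growth hormone and STAT5 list holds IGF1, IGFALS, BCL6, PIM1 and ONECUT1 beside SOCS2, SOCS3 and CISH, and 7 of its 8 genes were tested, ONECUT1 being at 0 in every library. IGF1, the growth factor through which growth hormone acts in many tissues, measured 19.5, 16.2 and 10.3 FPKM at 0 d, 106, 111 and 117 at 3 d, 1.17, 5.88 and 6.25 at 6 d, then 11.2, 9.72 and 9.38 at 9 d. IGF1 was highest at 3 d, like GHR, SOCS2 and CISH, and rose vs 0 d (2.90 ± 0.52, adjusted p = 0.000941), then fell below its 0 d level by 6 d (-2.04 ± 0.52, adjusted p = 0.0125, limma, Benjamini-Hochberg). BCL6, a repressor that STAT5 is known to lower, measured 118, 67.9 and 90.4 FPKM at 0 d, 1488, 1535 and 1386 at 3 d, 92.1, 169 and 174 at 6 d, then 115, 249 and 244 at 9 d. It rose at 3 d vs 0 d (4.03 ± 0.34, adjusted p = 3.99e-06) and fell by 6 d (-3.40 ± 0.34, adjusted p = 1.9e-05, limma, Benjamini-Hochberg). BCL6 was also called at 9 d vs 0 d (1.09 ± 0.34, adjusted p = 0.0293, limma, Benjamini-Hochberg) although the first 9 d library, at 115, was within the 0 d range.

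IGFALS, which carries IGF1 in blood, went the other way, with 55.6, 58.9 and 63.2 FPKM at 0 d, 2.11, 0 and 0 at 3 d, 7.34, 9.48 and 9.08 at 6 d, then 10.4, 10.2 and 13.5 at 9 d. All later libraries were below those of 0 d, and it was called lower at 3 d (-7.72 ± 0.96, adjusted p = 7.33e-05) and 6 d (-2.77 ± 0.96, adjusted p = 0.0486, limma, Benjamini-Hochberg), the first from a day with values of 0. PIM1, a kinase gene induced by STAT5 and STAT3, measured 24.4, 23.5 and 26 FPKM at 0 d, 8.45, 9.78 and 10.7 at 3 d, 10.2, 13.3 and 12 at 6 d, then 21.7, 18.5 and 21.6 at 9 d. It fell at 3 d (-1.35 ± 0.12, adjusted p = 6.17e-06) and 6 d vs 0 d (-1.06 ± 0.12, adjusted p = 7.89e-05, limma, Benjamini-Hochberg). Targets of the same list therefore moved in both directions at 3 d, with 4 of 7 higher, SOCS2 and CISH among them, and 2 lower. The higher ones include BCL6, which STAT5 is known to lower. Without SOCS2, SOCS3 and CISH, which are among the 10 genes, 2 of 4 were higher and 2 lower at 3 d. Later counts were 3 lower at 6 d and 2 higher at 9 d vs 0 d, 1 higher and 3 lower from 3 d to 6 d, and 0 from 6 d to 9 d. The median of the 7 was 1.55 at 3 d, -0.18 at 6 d and -0.26 at 9 d vs 0 d. That of 3 d is the value of CISH itself and that of 6 d the value of SOCS2.

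**Figure D4:**
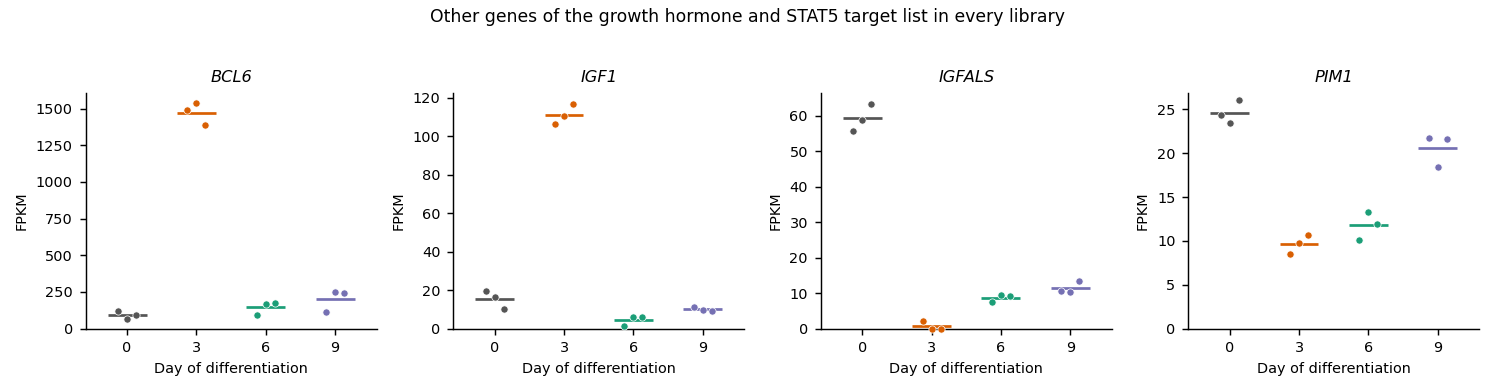
FPKM (y axis) of the called genes of the growth hormone and STAT5 list other than the SOCS family by day of differentiation (x axis), 1 panel per gene, with points for libraries and lines at day means. BCL6 (1386 to 1535) and IGF1 (106 to 117) are highest at 3 d, while IGFALS and PIM1 are lower at 3 d than at 0 d.

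Of 21 IL-6 and STAT3 targets, 17 were tested, and SERPINA3 and M-SAA3.2 were at 0 in every library. Of the 17, 5 were higher and 1 lower at 3 d vs 0 d with a median of 0.54, at 6 d 2 and 1 with 0.41, and at 9 d 6 and 0 with 0.57, SOCS3 among the last. Of all rows, 8.06%, 3.39% and 3.41% were higher and 15.2%, 7.97% and 7.47% lower on these days. The medians of all rows were -0.06, -0.15 and -0.19. The list's median of 0.54 at 3 d is the value of SOCS3 itself. Without SOCS3, 5 of 16 were higher and 1 lower at 3 d, and 5 were higher and 0 lower at 9 d. This list shares PIM1 and SOCS3 with the STAT5 list, CEBPD with the glucocorticoid list, and IL4R and OSMR with receptor lists. JUNB, a transcription factor of the AP-1 family, measured 16.5, 16.6 and 18.4 FPKM at 0 d, 15.6, 18 and 16.9 at 3 d, 18.8, 20.2 and 19.6 at 6 d, then 50, 49.2 and 52.8 at 9 d. Its 9 d libraries were the highest, as for SOCS3, and it rose at 9 d vs 0 d (1.56 ± 0.07, adjusted p = 2.23e-07) and from 6 d (1.37 ± 0.07, adjusted p = 1.48e-06, limma, Benjamini-Hochberg). TIMP1, an inhibitor of metalloproteinases, rose in the same comparisons (1.47 and 1.19), and VEGFA rose at 9 d vs 0 d (1.28).

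Acute-phase genes belong to this list too. SAA3 was listed at 0 in every 0 d library and at 1.69, 2.33 and 1.22 FPKM at 3 d, and LBP was listed at 0 at 0 d and at 0.37, 0.3 and 0.45 at 6 d and 0.19, 0.43 and 0.56 at 9 d, so no fold against 0 d is given for either. HP, haptoglobin, rose at 3 d vs 0 d (1.82 ± 0.15, adjusted p = 2.76e-06) and fell from 3 d to 6 d (-1.54 ± 0.15, adjusted p = 1.3e-05, limma, Benjamini-Hochberg). MYC rose at 3 d vs 0 d by 1.56. The list's summed level was 5307, 6546 and 5237 FPKM at 0 d, 6842, 8776 and 8487 at 3 d, 7105, 8712 and 8564 at 6 d, then 9210.4, 9496 and 8694 at 9 d, with MCL1 the most abundant gene over the 12 libraries and CEBPD at 3 d. In the later steps 1 was higher and 2 lower from 3 d to 6 d, and 2 were higher from 6 d to 9 d.

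Of 16 tested interferon targets, which SOCS1 is known to restrain, IFIH1 and CMPK2 passed the filter only through 0 d and are not counted. Of the other 14, 5 fell at 3 d, 8 at 6 d and 4 at 9 d vs 0 d, where 15.2%, 7.97% and 7.47% of all rows fell, and 0 rose in any of the 3. Their medians were -0.90, -1.07 and -0.46, against -0.06, -0.15 and -0.19. Not all were below their 0 d level: the mean was higher in the row that DDX58 shares with TOPORS at 3 d, in USP18 and IFIT5 at 6 d and 9 d and in IFI6 at 9 d, with 0 called. Later, 2 were higher and 3 lower from 3 d to 6 d, and from 6 d to 9 d 4 were higher. PSMB8, an immunoproteasome subunit, measured 5.12, 5.14 and 4.67 FPKM at 0 d, 2.29, 2.95 and 2.65 at 3 d, 0.67, 0.48 and 0.8 at 6 d, then 2.16, 2.59 and 2.12 at 9 d. It fell at 6 d vs 0 d (-2.78 ± 0.16, adjusted p = 7.66e-07) and rose from 6 d to 9 d (1.69 ± 0.16, adjusted p = 6.77e-05, limma, Benjamini-Hochberg). IRF1 measured 6.5, 4.12 and 6.66 FPKM at 0 d, 2.13, 4.49 and 2.59 at 3 d, 1.09, 1.03 and 1.23 at 6 d, then 4.06, 2.52 and 4.81 at 9 d, and it too was lowest at 6 d (-2.24 vs 0 d). IRF7 fell at 3 d (-1.38) and 6 d (-2.51), and PSMB9 on each day (-1.73, -3.06 and -2.06). At 3 d the row that IFIT3 shares with 2 unnamed loci fell by 4.01 on the log2 scale. MX1 was lower at 9 d vs 0 d (-1.47), and IFI44L rose from 6 d to 9 d (1.27). The list's summed level was 205, 172 and 182 FPKM at 0 d, 149.7, 155 and 156 at 3 d, 133, 129 and 137 at 6 d, then 153, 161 and 157 at 9 d, with IFIT5 the most abundant over the 12 libraries.

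Responses to the inducing agents were read beside these results, as dexamethasone acts through the glucocorticoid receptor and IBMX through cAMP. Of 14 tested glucocorticoid response genes, 12 rose and 1 fell at 3 d, 10 rose at 6 d, and 6 rose and 2 fell at 9 d vs 0 d, with medians of 2.88, 1.47 and 0.69. ZBTB16, FKBP5 and PDK4 had the largest log2 fold changes at 3 d (9.29, 7.02 and 5.95). The list's summed level was 1599, 1559 and 1750.1 FPKM at 0 d, 4884, 4881 and 4819 at 3 d, 3620.2, 3889 and 3868 at 6 d, then 2461, 2664 and 2748 at 9 d, with CEBPD the most abundant. The sum was thus highest on the same day as GHR, LIFR, SOCS2 and CISH, and its part in their change was not tested. From 3 d to 6 d 1 rose and 9 fell, and from 6 d to 9 d 8 fell.

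Of 12 cAMP response genes, 2 rose and 1 fell at 3 d, 2 fell at 6 d and 2 rose at 9 d vs 0 d, 1 rose and 5 fell from 3 d to 6 d, and 3 rose from 6 d to 9 d. PDE4D (2.56) and SIK1 (1.16) rose at 3 d vs 0 d and CREB3L1 fell (-1.47). The sum, with PDE4D the most abundant but for 6 d, was 281, 267 and 276 FPKM at 0 d, 363, 1008 and 991 at 3 d, 319, 253 and 237 at 6 d, then 543, 556 and 611 at 9 d. Of 16 NF-kB and inflammatory genes, whose pathway also drives IL6, with CCL5 not counted as it passed the filter only through 9 d, 7 rose and 4 fell at 3 d, 3 rose and 6 fell at 6 d, and 3 rose and 2 fell at 9 d vs 0 d. Then 2 rose and 6 fell from 3 d to 6 d, and from 6 d to 9 d, the step in which the level of IL6 went up, 7 rose and 2 fell with a median of 0.84. PTX3, TNFAIP3 and NFKBIA had the largest log2 fold changes at 3 d vs 0 d (6.87, 3.02 and 2.67). The sum was 529, 503 and 533 FPKM at 0 d, 2632, 2787 and 2671 at 3 d, 2051, 2208 and 2193 at 6 d, then 899, 881 and 855 at 9 d, with CSF1 the most abundant at 0 d and 9 d and PTX3 at 3 d and 6 d, and IL1B and CCL20 at 0 throughout, and the part of either list in the change of IL6 was not tested.

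Cell type markers were counted in the same way, since a change in the mix of cells could move receptor transcripts too. Adipocyte markers had 1 of 10 higher and 4 lower from 3 d to 6 d and 2 higher and 1 lower from 6 d to 9 d, and FABP4 rose at 3 d vs 0 d (4.75). DGAT2 was called higher and LEP lower at 3 d vs 0 d, with folds set by the added 0.1, as DGAT2 measured 0.04, 0 and 0.18 FPKM at 0 d and LEP 0, 0.21 and 0 at 3 d. LEP was then above its 0 d level, by 3.06 at 9 d vs 0 d. Of the preadipocyte and fibroblast markers, with CD34 not counted, 4 of 7 rose and 2 fell at 3 d, 3 rose and 1 fell at 6 d and 2 rose at 9 d vs 0 d, 1 rose and 1 fell from 3 d to 6 d, and 1 rose from 6 d to 9 d. PDGFRA, which marks adipogenic progenitors, and DCN rose at 3 d (2.54 and 2.09), and COL1A1 and PDGFRB fell (-1.68 and -1.38).

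Of 9 tested skeletal muscle markers, 7 fell at 3 d, 6 at 6 d and 7 at 9 d vs 0 d, led at 3 d by CKM (-5.39), TNNT1 (-4.80) and MYH3 (-1.62). Later, 3 rose and 2 fell from 3 d to 6 d, and 1 rose from 6 d to 9 d. Their sum was 845, 886 and 968 FPKM at 0 d, 273, 299.6 and 297 at 3 d, 404, 386 and 429 at 6 d, then 336, 302 and 333 at 9 d, with DES the most abundant, and PAX7 had no row. Of 5 tested pericyte and smooth muscle markers, 4 fell at 3 d, led by ACTA2 (-5.98), CSPG4 (-4.52) and NOTCH3 (-3.67), 1 rose and 2 fell at 6 d and 3 fell at 9 d vs 0 d, 4 rose from 3 d to 6 d and 2 fell from 6 d to 9 d. MYH11, the fifth, went the other way at 3 d, with 60.6, 59.7 and 51.2 FPKM against 23.7, 26.3 and 19.8 at 0 d, and was not called. Their sum was 1923, 1950.2 and 2066 FPKM at 0 d, 99.5, 102 and 90.2 at 3 d, 1654, 1776 and 1759.7 at 6 d, then 744, 682 and 764 at 9 d, mostly ACTA2 but for 3 d, when MYH11 was the most abundant. The sum of this list was lowest on the day when GHR, LIFR, SOCS2 and CISH were highest, and whether a shift between cell types contributed to their change was not tested.

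Of 13 blood and immune markers 5 were tested, and 4 rose at 3 d, 2 at 6 d and 3 at 9 d vs 0 d, while 2 fell from 3 d to 6 d and 1 from 6 d to 9 d. CD163, a scavenger receptor that glucocorticoids induce in macrophages, CD79A and CD14 had the largest changes at 3 d (7.40, 3.34 and 1.71). The sum was 2.68, 1.97 and 1.71 FPKM at 0 d, 209, 119.7 and 90.9 at 3 d, 30.7, 29.8 and 18.5 at 6 d, then 8.46, 6.71 and 6.33 at 9 d, mostly CD163 at 3 d and 6 d. Of the others, PTPRC, ITGAM, TYROBP and HBB were at 0 in every library. Of 3 tested endothelial markers none was called at 3 d or 9 d, CLDN5 fell at 6 d vs 0 d, 2 fell from 3 d to 6 d and none was called from 6 d to 9 d. Their sum was 3.23, 3.73 and 3.04 FPKM at 0 d, 3.73, 3.59 and 3.47 at 3 d, 2.85, 2.52 and 2.81 at 6 d, then 3.17, 2.57 and 3.26 at 9 d, with VWF the most abundant. None of 9 proliferation genes was called in any comparison, and their sum, led by TYMS or AURKB, was 131, 117 and 110.1 FPKM at 0 d, 152, 141 and 167 at 3 d, 107, 111 and 109.7 at 6 d, then 104, 112 and 113 at 9 d.

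**Figure D5:**
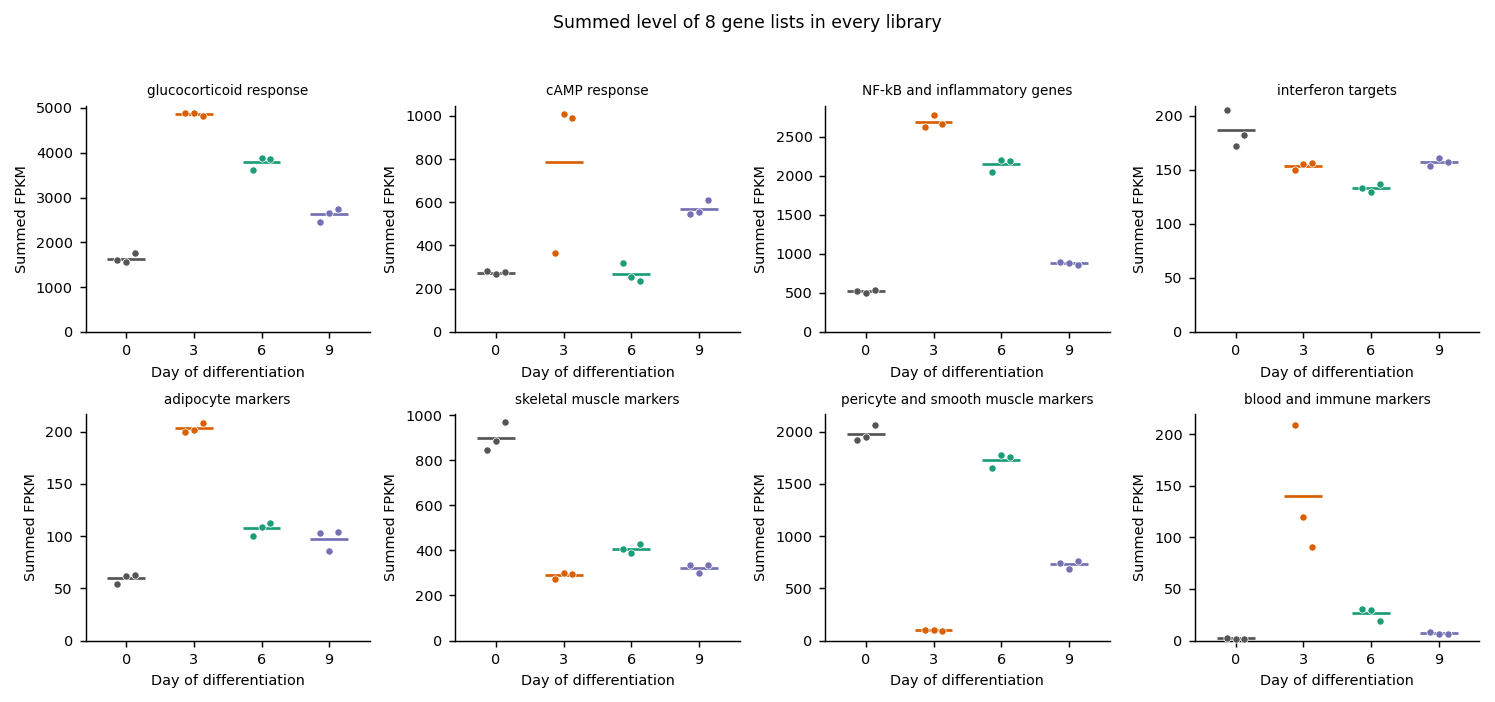
Summed FPKM (y axis) of 8 lists, 1 panel each, in the 12 libraries by day of differentiation (x axis), with points for libraries and lines at day means. The glucocorticoid response sum is highest at 3 d (4819 to 4884) and the pericyte and smooth muscle sum lowest at 3 d (90.2 to 102).

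A further readout of the same genes, back-spliced circular RNA, was available as read counts. Of 14070 circRNA rows, 9 name 1 of the 10 genes as host, and they hold 109 reads, 103 of them from LIFR, 4 from STAT3 and 2 from GHR. The other 7 genes have none. The main LIFR circle, circRNA375, joins 3 exons on NC_037347.1 of ARS-UCD1.2, the sequence that also carries GHR, from 35900694 to 35905467. It had 2, 2 and 1 reads at 0 d, 9, 13 and 4 at 3 d, 0, 3 and 10 at 6 d, then 9, 12 and 7 at 9 d. Its 3 d and 9 d libraries were above all those of 0 d, and 6 d spanned from 0 to the 3 d range. circRNA376, of 6 exons from 35918894 to 35929496, had 25 reads in all, with 2, 0 and 4 at 0 d, 2, 3 and 3 at 3 d, 3, 0 and 0 at 6 d, then 4, 2 and 2 at 9 d. The libraries held 5358 to 10729 back-spliced reads each, and counts this small were not tested between days. The remaining LIFR rows held 4 reads or fewer.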

How the data were processed

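Each library was sequenced by RNA-seq, and 12 libraries, 3 at each of 0, 3, 6 and 9 d, were used. By the submitters' processing notes, reads were mapped with HISAT2 2.0 and transcripts were assembled and quantified with StringTie 1.3.0. The notes also name Bowtie 0.12.2 and a mouse build, whereas the paper names the bovine build ARS-UCD1.2 and other versions of the mapping tools. The authors deposited the mRNA table as FPKM and the circRNA table as the count of back-spliced reads in each library. The lncRNA and miRNA tables hold none of the 10 genes and were not used. The paper's own comparisons used edgeR, a model for counts, and the mRNA table used here holds FPKM, so another test was needed.

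From the deposited FPKM, log2(FPKM + 0.1) was computed for the 15402 of 33714 rows with a mean of at least 0.1 FPKM. limma 3.58.1 in R 4.3.3 was fitted to all 12 libraries with 4 day means (lmFit, contrasts.fit, eBayes with trend, not robust), and p-values were adjusted by Benjamini-Hochberg over all rows tested within each of 5 comparisons. A row was called at an absolute log2 fold change over 1 and an adjusted p under 0.05. Tables and plots were made with Python 3.11.15, NumPy 2.4.6, pandas 2.3.3, SciPy 1.17.1 and Matplotlib 3.10.9. The number of reads behind each FPKM is not in the mRNA table. The circRNA libraries hold 5358 to 10729 back-spliced reads, which set the precision of those counts.

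The 10 genes and the gene lists were chosen with earlier results of these data known. The text names all 10 genes, up to 4 called genes per JAK-STAT list and comparison by absolute log2 fold change, up to 3 for the other lists, and the 3 rows most similar to each member with a mean of at least 1 FPKM. In lists outside the pathway, changes are named at 3 d vs 0 d only, apart from CLDN5 at 6 d and LEP at 9 d vs 0 d, a limit set after their values were seen. The most abundant rows of lists and genes at 0 are named too, and DLK1, MYH11, MYOD1, COL1A1, PDGFRB, USP18, IFI6 and DDX58 were named after their values were seen. A row that passed the filter through its highest day alone, the libraries of the other days having a mean under 0.1 FPKM, is left out of list counts and medians (IL6, IL11, IL27, CNTFR, IFIH1, CMPK2, CCL5, CEBPA and CD34), a rule set after the values were seen. Of 21 lists, 8 hold pathway components (JAK kinases, STAT factors, SOCS family, other inhibitors, gp130 ligands, gp130 receptor chains, homodimeric receptors and other receptor chains) and 3 hold targets. The others are the glucocorticoid, cAMP and NF-kB responses, proliferation genes and markers of adipocytes, preadipocytes and fibroblasts, skeletal muscle, pericytes and smooth muscle, blood and immune cells, and endothelium. List genes were matched by exact name, or else by a row that joins several names. Such merged rows hold reads of several genes and stand in for SOCS4, CNTF, CSF2RA, IFIT3, OAS1Y with OAS2, IRF9, DDX58, KLF9, VCAM1, PLIN1 and PPARG, and the matching was set after the table was seen. MT1E has 2 rows, of which the more abundant was taken. LNK is another name of SH2B3, which has its own row. CSF3R, CRLF2, IFIT1, BST2 and PAX7 have no row and are not analysed here. A further 2 genes of the JAK-STAT lists are not reported here and are left out of every list count. A planned search of promoters for STAT sites was not run, and promoter sequence was not used here.

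The alternatives were an added constant of 1 or 0.01, no filter or a mean of at least 1 FPKM, rescaling by median ratio or to the same sum, a fit of the compared libraries alone, the replicate number as a block, robust eBayes, each library left out in turn, and circRNA rows within 5 bp summed. A further alternative, without the second libraries of 6 d and 9 d, was added after their IL6ST values were seen.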

Additional observations from a re-analysis of the deposited data

How the results depend on the processing

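These results come from 3 libraries a day whose independence is not stated, of cells that the paper describes as a single batch, and from FPKM, which do not show the reads behind a row. IL6 and SOCS1 lie near the filter and the added constant, so the constant moves their folds and the filter decides whether they are tested. STAT5A shares near-identical sequence with STAT5B. Days differ in time and cell state at once, and 0 d from the others in medium too, so these cannot be told apart. The transcript levels say nothing about phosphorylated STAT factors or SOCS protein. The promoter search named in the design was not run.

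Of 780 recomputed member differences, 9 changed a call, in 7 of 50 gene comparisons. IL6 was called at 3 d vs 0 d with 0.01 added (-1.09) and was not called with 1 added at 9 d vs 0 d (0.27) or from 6 d to 9 d (0.33), where the added constant is as large as or larger than the level itself. SOCS1 was called with 0.01 added at 6 d vs 0 d (-1.09) and from 3 d to 6 d (-1.19). CISH was called at 6 d vs 0 d with median ratio rescaling (1.08) and without the second 0 d library (1.11). SOCS3 was not called at 9 d vs 0 d with rescaling to the same sum (0.998) or without the third 9 d library (0.96). Beyond the added constant, the cause was not tested. IL6 passed the filter through 9 d alone, and its 9 d calls are counted in this section only.

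With 1 added, the mRNAs called were 2184 in place of 3585 at 3 d vs 0 d, 967 in place of 1749 at 6 d vs 0 d, 888 in place of 1675 at 9 d vs 0 d, 1688 in place of 2939 from 3 d to 6 d and 368 in place of 683 from 6 d to 9 d. With a mean of at least 1 FPKM, 1114 were called at 9 d vs 0 d, of fewer rows. The members called at 6 d vs 0 d went from 0 to 1 with 0.01 added (SOCS1) and with median ratio rescaling (CISH), and ran from 0 to 1 with a library left out. At 9 d vs 0 d they went from 2 to 1 with 1 added (SOCS3), with a mean of at least 1 FPKM (SOCS3, as IL6 is then not tested) and with rescaling to the same sum (IL6), and ran from 1 to 2 with a library left out. From 6 d to 9 d they went from 1 to 0 with 1 added and with a mean of at least 1 FPKM, where IL6 is not tested. At 3 d vs 0 d and from 3 d to 6 d no left-out library changed the member count. With a library left out, mRNAs called ran from 3485 to 3660, 1689 to 1750 and 1541 to 1684 at 3, 6 and 9 d vs 0 d, from 2805 to 2920 from 3 d to 6 d and from 631 to 687 from 6 d to 9 d.

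The sign turned only in differences near 0 that were never called. With a library left out, the log2 difference ran from -0.0289 to 0.246 for SOCS1 and from -0.0261 to 0.0662 for IL6ST at 3 d vs 0 d, from -0.33 to 0.12 for SOCS2 at 6 d vs 0 d and from -0.0156 to 0.0442 for STAT3 at 9 d vs 0 d. From 3 d to 6 d it ran from -0.0212 to 0.14 for IL6 and from -0.30 to 0.0687 for STAT5A, and from 6 d to 9 d from -0.18 to 0.59 for IL6ST. At 9 d vs 0 d GHR was 0.13 with median ratio rescaling and STAT3 -0.0319 with rescaling to the same sum, while with median ratio rescaling STAT3 was 0.23 with an adjusted p of 0.0177, not called.

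Other differences crossed an adjusted p of 0.05 with no call changed, and not all of them are listed here. With median ratio rescaling these were GHR (0.42, adjusted p = 0.0169) and STAT5A (-0.59, adjusted p = 0.0846) at 6 d vs 0 d, SOCS2 at 9 d vs 0 d (-0.56, adjusted p = 0.0698) and STAT3 from 6 d to 9 d (-0.14, adjusted p = 0.14). With rescaling to the same sum they were SOCS3 from 3 d to 6 d (-0.27, adjusted p = 0.0142) and GHR from 6 d to 9 d (-0.38, adjusted p = 0.0486), and with no filter IL6 at 6 d vs 0 d (adjusted p = 0.0498). In a fit of the compared libraries alone, LIFR (adjusted p = 0.0615) and CISH (0.0513) at 9 d vs 0 d no longer passed (limma, Benjamini-Hochberg). IL6 at 3 d vs 0 d did not pass in that fit (0.0696) or with 1 added (0.0663, same test). STAT5A had an adjusted p of 0.0512 at 6 d vs 0 d with the replicate block (same test). At 3 d vs 0 d it had 0.0136 without the second 3 d library (same test). Leaving out the second 9 d library took STAT5A at 9 d vs 0 d from -0.45 to -0.26.

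Without both second libraries of 6 d and 9 d, an alternative chosen after seeing the data, SOCS2 at 6 d vs 0 d was 0.12 and not called, and the members called stayed the same in the 4 comparisons concerned. The mRNAs called were then 1676 and 1529 at 6 d and 9 d vs 0 d, 2838 from 3 d to 6 d and 599 from 6 d to 9 d. Summing circRNA rows within 5 bp left the 9 rows as they were.

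The replicate numbers were not taken to pair the libraries, as that asks for every same-numbered pair to correlate over 0.1: 18 such pairs had correlations of deviations from -0.10 to 0.11, with 2 over 0.1. The 6 pairs of replicate 3 were all above 0 (0.0292 to 0.105), and a library correlated best with its own number in 19 of 36 combinations, where 12 would be expected if the numbers carried nothing, so weak sharing is not excluded. With the replicate block the mRNAs called were 3591, 1746 and 1683 at 3, 6 and 9 d vs 0 d, 2933 from 3 d to 6 d and 657 from 6 d to 9 d, and no member changed its call.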
